A study of Mus musculus with 18 samples.

Results

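This account follows 51 genes of BMP and TGF-beta signalling, of 46983 in the expression table, through the growth of mouse ear cartilage lipochondrocytes and beside adipocytes. The members were taken by symbol: the BMP and GDF ligands, TGF-beta 1 to 3, the activin subunit genes Inhba and Inhbb, the BMP, activin and TGF-beta receptors, SMAD1 to SMAD7 and SMAD9, and the secreted antagonists Nog, Chrd, Chrdl1, Chrdl2, Grem1, Fst and Fstl1. They comprise 19 BMP or GDF ligands, 5 TGF-beta or activin ligands, 12 receptors, 8 SMADs and 7 antagonists. Lipochondrocytes are cartilage cells that store lipid, as the elastic cartilage of the ear contains them. They were sampled at postnatal days 8, 10, 13, 21 and 33 (P8 to P33), and adipocytes came from the inguinal fat of P33 mice. All 6 groups, adipocytes included, carried Wnt1-Cre2;TdTomato on a C57BL/6 background, a Cre line that labels cells of the neural crest lineage. The P8, P10 and P13 cells were freed with collagenase and sorted for high TdTomato, whereas at P21 and P33, and for adipocytes, the floating cells were taken after centrifugation with no sort named. Each group had 3 libraries of total RNA, 18 in all. Nothing in the labels says that these were separate animals or pools, so p-values measure the spread between these libraries, which may be technical.

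BMPs, GDFs, TGF-betas and activins are secreted dimers that bring type II and type I receptor kinases together. BMP and GDF signals pass mainly through SMAD1, SMAD5 and SMAD9, TGF-beta and activin signals through SMAD2 and SMAD3, and SMAD4 is the shared partner of both arms. Noggin, the chordins and gremlin hold BMPs in the extracellular space, and follistatin holds activins. In cartilage BMPs drive chondrocyte formation and growth, TGF-beta restrains the final maturation of chondrocytes, and in fat TGF-beta is known to restrain adipocyte formation.

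Values are FPKM as the authors deposited them (fragments per kilobase of gene, scaled to the mapped fragments of the library), which are per length and so allow levels to be compared between genes. Differences are on the log2(FPKM + 1) scale, which understates the change of low genes, with the standard error (SE) and the Benjamini-Hochberg adjusted p from limma; a difference is called at an adjusted p below 0.05. Depth ran from 12461965 to 27640142 reads per library, and no counts per gene were available, so a listed 0 does not show absence. The labelled cell types held against their markers: the sum of 10 chondrocyte markers was 16630 to 27259 FPKM in the 15 lipochondrocyte libraries and 1.28 to 2.07 FPKM in adipocytes, where 5 of the 10 were at 0, Acan and Chad among them. Of 9 chondrocyte markers tested, 9 were higher at P33 than in adipocytes, where 24.0% of all genes were higher. With adipocyte sums this low, the markers passed the filter largely through lipochondrocyte libraries, which favoured that count. Single markers did not all hold with stage: Matn1 was at 0 at P21 and P33, and 5 of the 9 were lower and 0 higher at P33 than at P21 (7.17% and 2.87% of all genes). The sum of 10 adipocyte markers was 8.59 to 39.4 FPKM in lipochondrocytes, with Lep at 0 at every stage, and 90330 to 96095 FPKM in adipocytes. Floating lipochondrocytes (P21 and P33) had fibroblast and perichondrium marker sums of 5213 to 9776 FPKM, against 2169 to 2827 FPKM at P13 and 409 to 425 FPKM in adipocytes. Macrophage marker sums were 15.3 to 54 FPKM at P21 and P33, 3.03 to 3.86 FPKM at P13 and 701 to 760 FPKM in adipocytes. P8 replicate 3 stood apart within its group, being the highest of the 3 libraries for 30 of 36 members (83.3%), against 52.4% of all genes tested. P33 replicate 3 was the highest for 23 of 36 members (63.9%), against 41.2% of all genes. In bulk RNA of this kind, fewer cells of a type and less RNA per cell cannot be told apart.

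Tgfb2, Tgfbr2 and Grem1 were among the members that were higher in every P21 and P33 lipochondrocyte library than in every younger one. The 250 bases before their starts are shown here. Chrd, Chrdl1, Fst, Inhbb and Tgfbr3 were also higher in this way and are not shown, so the 3 are a chosen part of such members. The sequences are RefSeq's on GRCm38.p6 (the mm10 build), all on the minus strand and written 5′ to 3′. Capitals mark the letters CAGAC or GTCTG (the SMAD box, either strand) and GGCGCC (a GC-rich SMAD element, the same on both strands), and no capitals overlap.
Tgfb2, chr1:186705990-186706239: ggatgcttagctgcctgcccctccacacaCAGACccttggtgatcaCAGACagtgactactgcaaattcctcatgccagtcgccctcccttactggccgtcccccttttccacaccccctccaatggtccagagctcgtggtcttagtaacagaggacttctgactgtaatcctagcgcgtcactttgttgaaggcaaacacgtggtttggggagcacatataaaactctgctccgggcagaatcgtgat
Tgfbr2, chr9:116175364-116175613: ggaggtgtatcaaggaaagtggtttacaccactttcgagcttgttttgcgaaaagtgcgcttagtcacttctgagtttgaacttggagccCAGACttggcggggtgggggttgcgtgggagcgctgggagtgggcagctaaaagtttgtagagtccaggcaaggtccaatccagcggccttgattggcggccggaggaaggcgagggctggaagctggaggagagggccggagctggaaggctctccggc
Grem1, chr2:113758649-113758898: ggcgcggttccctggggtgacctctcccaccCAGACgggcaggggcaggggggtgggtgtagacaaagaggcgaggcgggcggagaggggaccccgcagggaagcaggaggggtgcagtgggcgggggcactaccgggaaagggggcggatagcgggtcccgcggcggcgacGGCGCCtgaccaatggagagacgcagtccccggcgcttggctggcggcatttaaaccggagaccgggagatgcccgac
The Tgfb2 window held 2 SMAD boxes, the Tgfbr2 window 1, and the Grem1 window 1 SMAD box and 1 GC-rich element. Of 32851 promoter windows of this length, 42.2% held a SMAD box and 9.6% the GC-rich element, so these matches are common and describe letters only. A promoter was in the table for 34 of the 51 members.

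Of the 51 members, 37 reached 1 FPKM in at least 3 libraries and were tested among 13815 genes. Acvr1c, Bmp3, Bmp6, Bmpr2 and Gdf15 passed only through the adipocyte libraries, since at most 2 lipochondrocyte libraries reached 1 FPKM, so that their lower level in lipochondrocytes was favoured by the filter and is given as values with no test. Against P33 adipocytes, P33 lipochondrocytes had 12 members higher and 13 lower, where 68.5% of all genes tested were called (24.0% higher, 44.5% lower). Without those 5 members, all of them lower, the counts were 12 higher and 8 lower of 32. Members favoured in the other direction were not taken out, so this lean towards higher is partly set by the removal. Of the higher members, Bmp5, Fst, Grem1, Inhba and Nog had every adipocyte library below 1 FPKM, and Tgfb2 had 0.59, 0.44 and 1.28 FPKM there. These passed only through lipochondrocyte libraries, so their higher level was favoured by the filter. They stay in the counts, here and by role, and their levels against adipocytes are given below as values with no test. The median difference of the 37 members was 0.16, against -0.28 for all genes. Median-of-ratios scaling moved the median of all genes to -0.02, and the members then split 13 higher and 9 lower, where 30.3% of all genes were higher and 34.9% lower. By role, 5 of 7 antagonists were higher and 1 lower, and 3 of 5 TGF-beta or activin ligands higher and 1 lower. Of 8 BMP or GDF ligands 3 were higher and 3 lower, of 10 receptors 0 were higher and 6 lower, and 1 of 7 SMADs was higher and 2 lower. Of 5 such ligands that passed without the adipocyte libraries 3 were higher and 0 lower, and of 8 such receptors 0 were higher and 4 lower. That step takes out lower members alone, so the 0 lower ligands follow from it.

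Between P21 and P13 lipochondrocytes, 15 members were higher at P21 and 3 lower, so that 48.6% of members were called, near the 43.1% of all genes (36.0% higher, 7.04% lower) and the median was 0.41 for members and 0.29 for all genes. Median-of-ratios scaling took the median of all genes to 0.01 and left 10 members higher and 3 lower, where 16.0% of all genes were higher and 16.0% lower. Fst, counted as higher at P21, passed the filter only through P21 and P33 libraries, which favoured its call. Stage and way of collection changed together between P13 and P21 and cannot be told apart. Of 12 fibroblast and perichondrium markers 6 were higher and 2 lower, and of 9 tested chondrocyte markers 2 were higher and 4 lower. Higher were also 5 of 8 macrophage, 6 of 10 adipocyte and 6 of 6 tested skeletal muscle markers. The part of these cell types in the results was not tested. The muscle marker sum was 74 to 506 FPKM at P21 and 23 to 36.5 FPKM at P13. The adipocyte marker sum was 33 to 39.4 FPKM at P21 and 14.5 to 16.4 FPKM at P13.

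Set against the same adipocytes, P21 lipochondrocytes had 15 members higher and 15 lower, or 15 and 10 without those 5 members (67.5% of all genes called, 24.5% higher and 43.1% lower). The higher ones again include the members that passed only through lipochondrocyte libraries, here also Bmp4, Chrdl2 and Gdf10. Median-of-ratios scaling gave 16 and 11 with all 37 members (29.7% of all genes higher, 34.5% lower).

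P13 against P10 gave 2 higher and 8 lower (22.6% of all genes called, 18.6% higher and 4.03% lower; member median -0.11, all genes 0.15). Under median-of-ratios scaling it gave 2 higher and 13 lower, where 8.14% of all genes were higher and 8.56% lower, and without P10 replicate 1 or 3 or P13 replicate 2 it gave 4, 4 and 5 lower. At P10 against P8 only Bmp5 was called, lower (11.0% of all genes, 1.90% higher and 9.14% lower; member median -0.05, all genes -0.19). Median-of-ratios scaling instead gave Gdf10, Smad3 and Tgfbr2 higher and none lower, where 3.60% of all genes were higher and 0.905% lower. P13 against P8 gave Gdf5 higher and Bmp2, Inhba and Nog lower (4.21% of all genes, 2.69% higher and 1.52% lower). With that scaling 2 were higher and 4 lower (3.89% and 1.79% of all genes). P33 against P21, both floating cells, gave 1 higher and 4 lower (10.0% of all genes, 2.87% higher and 7.17% lower), and as many with that scaling (2.99% and 5.95% of all genes). The 4 lower became 1 without P21 replicate 2 and 2 without P33 replicate 1, and the 1 higher became 2 without P21 replicate 3 and 3 without P33 replicate 3.

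**Figure D1:**
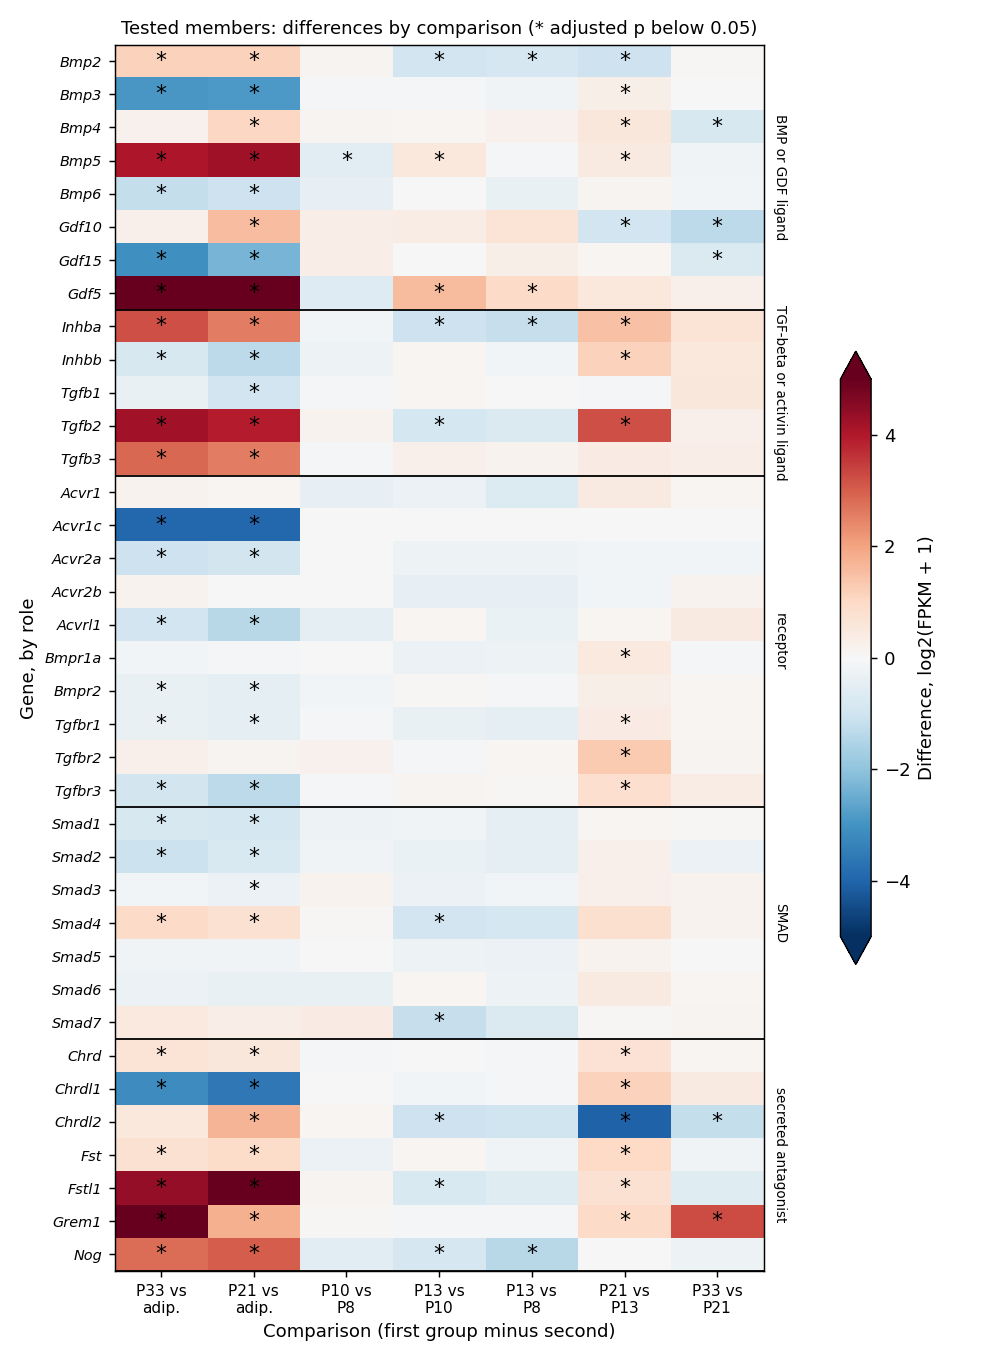
Log2 differences of the 37 tested members (rows, by role) in 7 comparisons (columns, first group minus second), coloured from -5 to 5 with values beyond held at the end of the scale; an asterisk marks an adjusted p below 0.05 (Acvr1c, Bmp3, Bmp6, Bmpr2 and Gdf15 passed the filter only through adipocytes). Bmp5, Fst, Grem1, Inhba, Nog and Tgfb2 passed only through lipochondrocytes, so the filter favoured their asterisks in the 2 columns against adipocytes. The same holds for Fst at P21 against P13. The 2 columns against adipocytes hold the strongest colours, and between stages the column of P21 against P13 has the most asterisks (18), with Tgfb2 at 3.24 and Chrdl2 at -4.03.

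Gdf5 was the most abundant BMP or GDF transcript at each stage of lipochondrocytes, and both Gdf5 and Bmp5 were scarce in adipocytes. Gdf5 (ENSMUSG00000038259.4, chr2:155941023-155945367, minus strand), a ligand of forming joints and cartilage, had 55.9, 64.1 and 55 FPKM at P8, 33.6, 34.5 and 43.4 at P10, 97.5, 118 and 125 at P13, 119, 181 and 204 at P21, 132, 198 and 289.9 at P33, and 3.83, 3.07 and 3.42 in adipocytes. Every library from P13 onward lay above every P8 and P10 library, and P33 ranged widely, with replicate 3 the highest. The level at P13 exceeded that at P10 3.06-fold (log2 difference 1.59, SE 0.24, adjusted p = 3.48e-04), while P21 against P13 (log2 difference 0.53, SE 0.24, adjusted p = 8.79e-02) and P33 against P21 (log2 difference 0.26, SE 0.24, adjusted p = 5.86e-01) were not called. P33 lipochondrocytes averaged 207 ± 79 FPKM, against 3.44 ± 0.38 FPKM in adipocytes (SD, n = 3 each; 60.1-fold; log2 difference 5.48, SE 0.24, adjusted p = 1.74e-11). The P21 lipochondrocytes, set against the same adipocytes, averaged 168 ± 44 FPKM (log2 difference 5.22). P13 was also above P8 (log2 difference 0.95, SE 0.24, adjusted p = 3.73e-02), a call lost without any single one of those 6 libraries, P8 replicate 1, 2 or 3 or P13 replicate 1, 2 or 3 (adjusted p 5.26e-02 to 1.41e-01). Gdf5 overlaps Gm15557, which stood at 0 to 1.90 FPKM, and use of strand in the counting is not given in the sources used here.

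Bmp5 (ENSMUSG00000032179.7, chr9:75775364-75900310, plus strand), the gene mutated in short ear mice, had 13.5, 14.3 and 15.4 FPKM at P8, 8.73, 9.54 and 10.1 at P10, 12.8, 15.9 and 13.5 at P13, 21.1, 19 and 18.2 at P21, 16.9, 18.7 and 15.6 at P33, and 0.10, 0.11 and 0.05 in adipocytes. It was above 8 FPKM in every lipochondrocyte library and near 0 in adipocytes, which is given with no test. The P10 libraries were the lowest of the 5 stages and did not overlap their neighbours, below P8 (log2 difference -0.56, SE 0.10, adjusted p = 4.52e-03) and with P13 above P10 (log2 difference 0.52, SE 0.10, adjusted p = 2.23e-03). Under median-of-ratios scaling the P10 against P8 difference was -0.26 and not called (adjusted p = 8.20e-02). P21 stood above P13 by 0.44 (adjusted p = 2.98e-03), which median-of-ratios scaling reduced to 0.02 (adjusted p = 9.05e-01).

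Bmp2 (ENSMUSG00000027358.6, chr2:133552159-133562885, plus strand), a potent inducer of bone and cartilage, was highest in the youngest cells. Its values were 15.6, 18 and 17.2 FPKM at P8, 15.7, 18.3 and 22 at P10, 6.33, 11.4 and 9.85 at P13, 3.84, 3.83 and 3.71 at P21, 3.66, 3.99 and 4.11 at P33, and 1.28, 1.12 and 1.14 in adipocytes. The groups descended in steps, with every P13 library below every P8 and P10 library and every P21 library below every P13 library. P13 lay below P10 (log2 difference -0.97, SE 0.16, adjusted p = 6.02e-04) and P21 below P13 (log2 difference -1.05, SE 0.16, adjusted p = 1.07e-04), and P33 did not differ detectably from P21 (log2 difference 0.04, SE 0.16, adjusted p = 9.40e-01). Even so, P33 lipochondrocytes held 3.32 times the adipocyte level (log2 difference 1.17, SE 0.16, adjusted p = 8.82e-06).

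Gdf10 (ENSMUSG00000021943.6, chr14:33923587-33937983, plus strand), a relative of Bmp3, reached its highest level at P13 and was low at P33. It had 4.95, 5.41 and 7.13 FPKM at P8, 7.18, 6.56 and 8.86 at P10, 8.79, 10.2 and 11.1 at P13, 6.3, 5.25 and 3.08 at P21, 1.35, 0.97 and 1.66 at P33, and 0.91, 0.93 and 0.97 in adipocytes. P21 lay below P13 (log2 difference -0.94, SE 0.19, adjusted p = 1.28e-03) and P33 below P21 (log2 difference -1.31, SE 0.19, adjusted p = 5.22e-04), with no overlap between libraries at either step. The second call was lost when only P21 and P33 entered the fit (adjusted p = 0.10). At P33 the libraries overlapped those of adipocytes (log2 difference 0.25, SE 0.19, adjusted p = 2.57e-01), whereas P21 stood above adipocytes by 1.56.

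Bmp4, another cartilage and fat ligand, stayed low, with group means of 0.847 to 2.77 FPKM and the highest at P21. It had 0.50, 1.21 and 1.86 FPKM at P33, against 1.8, 2.89 and 3.63 FPKM at P21, and these overlapped (log2 difference -0.80, SE 0.22, adjusted p = 3.10e-02). When only P21 and P33 entered the fit, the call was lost (adjusted p = 2.84e-01). That call was lost without P21 replicate 2 or 3 or P33 replicate 1 or 2 (adjusted p 5.49e-02 to 1.26e-01), and the P21 against P13 call (0.58, adjusted p = 4.60e-02) was lost under 12 of 15 alternatives, among them median-of-ratios scaling and leaving out any P13 library or P21 replicate 2 or 3 (adjusted p up to 3.32e-01 over all alternatives).

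The 3 remaining tested ligands of this class were those that passed the filter only through the adipocyte libraries. Bmp3 (ENSMUSG00000029335.5, chr5:98854415-98884396, plus strand), which acts against other BMPs, had 0.32, 0.09 and 0.30 FPKM in P33 lipochondrocytes and 8.25, 8.39 and 7.99 FPKM in adipocytes, and did not exceed 0.37 FPKM in any lipochondrocyte library. Gdf15 (ENSMUSG00000038508.7, chr8:70629393-70632456, minus strand), a stress-induced hormone, was listed at 0 in all 3 libraries at P33 and had 8.76, 5.94 and 7.7 FPKM in adipocytes; at the other stages it had 0.17 to 1.00 FPKM. P33 lay below P21 in Gdf15 (log2 difference -0.74, SE 0.17, adjusted p = 1.28e-02), a call lost without P21 replicate 1 or 2 (adjusted p 5.55e-02 to 6.00e-02). The Gdf15 call was also lost when only P21 and P33 entered the fit (adjusted p = 1.39e-01). Bmp6, an iron-regulating BMP, had 0.52, 0.32 and 0.41 FPKM in P33 lipochondrocytes and 2.25, 2.3 and 2.07 FPKM in adipocytes. Bmp6 overlaps Txndc5, which stood at 40.16 to 239.43 FPKM.

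When 6 ligand genes (Bmp2, Bmp4, Bmp5, Bmp6, Bmp7 and Gdf5, a set chosen after their values were seen) were summed, Gdf5 supplied 63.5%, 55.4%, 81.8%, 85.7% and 89.3% of the FPKM from P8 to P33 and 43.7% in adipocytes. The sum itself averaged 91.8, 67.1, 139, 195 and 229 FPKM from P8 to P33, and 7.88 FPKM in adipocytes. Bmp2 supplied 27.7% of the sum at P10 and 1.83% at P33.

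**Figure D2:**
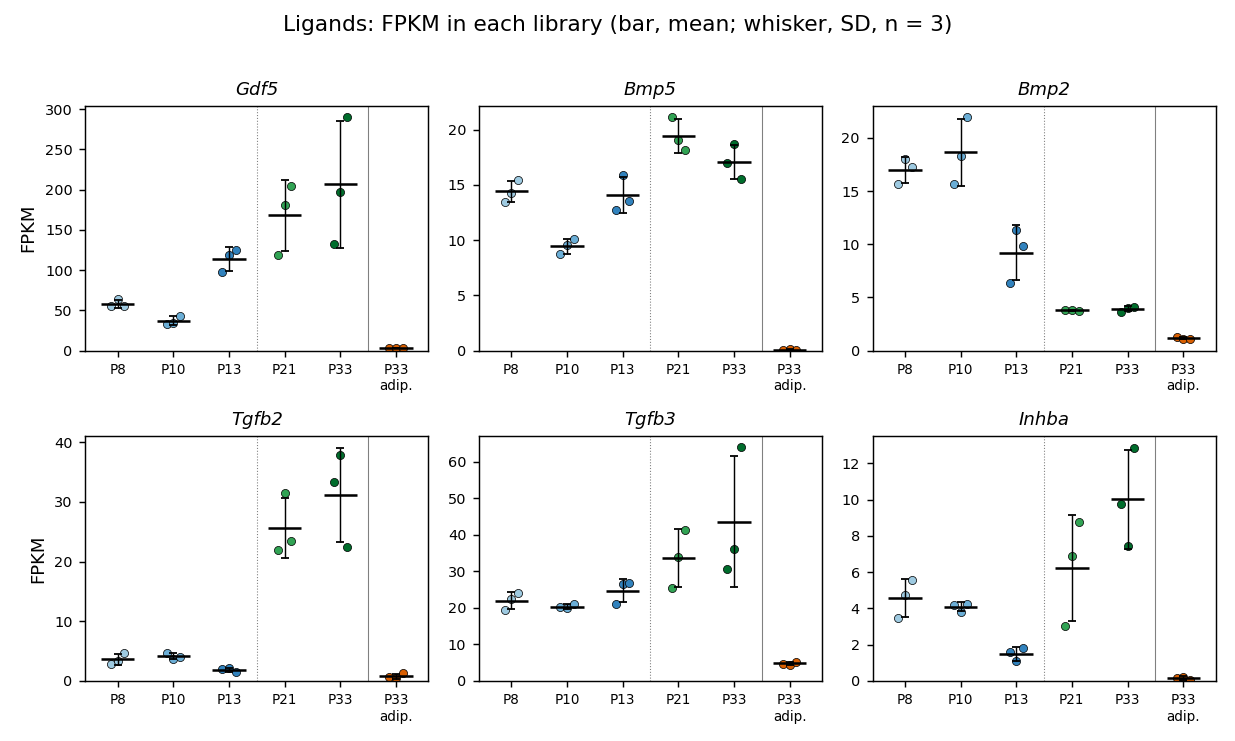
FPKM (linear axes from 0) of Gdf5, Bmp5, Bmp2, Tgfb2, Tgfb3 and Inhba by group; points are libraries, bars means and whiskers SD (n = 3), with a dotted line between sorted and floating cells and a solid line before the adipocytes (adip.). Gdf5 steps up at P13 and Bmp2 down, Tgfb2 is at 1.42 to 4.66 FPKM in the sorted libraries and 22.00 to 37.84 FPKM in the floating lipochondrocytes, and all 6 genes are low in adipocytes.

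Tgfb2 showed the steepest course of the TGF-beta ligands. Tgfb2 (ENSMUSG00000039239.14, chr1:186622792-186705989, minus strand), the isoform that needs the co-receptor betaglycan for efficient binding, had 2.83, 3.4 and 4.63 FPKM at P8, 4.66, 3.7 and 3.98 at P10, 1.91, 2.08 and 1.42 at P13, 22, 31.5 and 23.5 at P21, 33.3, 37.8 and 22.5 at P33, and 0.59, 0.44 and 1.28 in adipocytes. All 6 floating lipochondrocyte libraries lay above all 9 sorted ones, without overlap. P13 was below P10 (log2 difference -0.87, SE 0.22, adjusted p = 1.03e-02), and P21 was 14.2 times P13 (log2 difference 3.24, SE 0.22, adjusted p = 3.50e-08). P33 did not differ detectably from P21 (log2 difference 0.26, SE 0.22, adjusted p = 5.38e-01). Every P33 library lay above every adipocyte library, which is given with no test. The step from P13 to P21 coincides with the change of collection and with the higher fibroblast, macrophage and muscle marker sums given above, whose part in it was not tested. Its promoter, printed above, held 2 SMAD boxes.

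Tgfb3 (ENSMUSG00000021253.6, chr12:86056745-86079041, minus strand), the isoform of palate and cartilage, had the highest group mean of the 3 TGF-beta genes in all 6 groups, although Tgfb2 was higher in 2 of the 3 P33 libraries. It had 19.4, 22.3 and 23.9 FPKM at P8, 20.1, 19.9 and 21 at P10, 21.1, 26.4 and 26.7 at P13, 25.4, 33.9 and 41.3 at P21, 30.6, 36.1 and 64 at P33, and 4.66, 4.45 and 5.18 in adipocytes. The sorted libraries spanned a narrow range, and no step between successive stages was called (P21 against P13, log2 difference 0.41, SE 0.22, adjusted p = 1.52e-01). P33 was 9.15 times the adipocyte level (log2 difference 2.88, SE 0.22, adjusted p = 1.36e-08), with P33 replicate 3 well above the other two. Tgfb3 overlaps Ttll5, which stood at 1.07 to 3.42 FPKM.

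Tgfb1, the isoform common in immune and endothelial cells, was low in all groups. It had 3.66, 2.46 and 0.89 FPKM in P33 lipochondrocytes and 3.92, 2.65 and 2.76 FPKM in adipocytes, which overlapped (log2 difference -0.38, SE 0.25, adjusted p = 1.93e-01), and 0.87, 1.35 and 1.06 FPKM at P21, below adipocytes (log2 difference -0.97, SE 0.25, adjusted p = 3.39e-03), a call lost under upper-quartile scaling (-0.59, adjusted p = 5.79e-02). As a share of the 3 isoforms' FPKM, Tgfb2 supplied 13.5%, 16.1%, 6.58%, 42.8% and 41.5% from P8 to P33, and 8.72% in adipocytes, where Tgfb1 supplied 35.9%. The Tgfb2 share at P33 ran from 25.7% to 49.5% among the 3 libraries, lowest in replicate 3. The summed isoforms averaged 77.2 FPKM at P33, 60.2 FPKM at P21 and 27.7 FPKM at P13, against 8.64 FPKM in adipocytes.

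Inhba (ENSMUSG00000041324.13, chr13:16011851-16031621, plus strand), whose dimer is activin A, dipped at P13 and was higher after it. The values were 3.48, 4.72 and 5.55 FPKM at P8, 4.2, 3.81 and 4.24 at P10, 1.58, 1.08 and 1.8 at P13, 3.01, 6.9 and 8.77 at P21, 9.76, 7.43 and 12.9 at P33, and 0.17, 0.23 and 0.06 in adipocytes. No P13 library reached the level of any P10, P21 or P33 library. P13 lay below P10 (log2 difference -1.04, SE 0.27, adjusted p = 1.20e-02), a call lost without P13 replicate 2 (adjusted p = 5.54e-02), and P21 lay above P13 (log2 difference 1.45, SE 0.27, adjusted p = 5.74e-04; 4.19-fold). P13 also lay below P8 (log2 difference -1.16, SE 0.27, adjusted p = 2.26e-02), which was lost without P8 replicate 2 or 3 or P13 replicate 1 or 2 (adjusted p 5.44e-02 to 9.78e-02). In adipocytes the gene was under 0.3 FPKM, below every P33 library, which is given with no test.

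Inhbb (ENSMUSG00000037035.5, chr1:119415465-119422248, minus strand), whose dimer is activin B, ran the other way against adipocytes. It had 0.26, 0.40 and 0.63 FPKM at P8, 0.16, 0.18 and 0.27 at P10, 0.34, 0.32 and 0.22 at P13, 1.54, 1.63 and 2.52 at P21, 1.8, 2.45 and 6.07 at P33, and 5.83, 6.54 and 5.95 in adipocytes. P21 lay above P13 without overlap (log2 difference 1.15, SE 0.25, adjusted p = 1.81e-03; 6.47-fold). P33 replicate 3, at 6.07 FPKM, reached into the adipocyte range, and the lower level at P33 (log2 difference -0.80, SE 0.25, adjusted p = 9.74e-03) lost its call under median-of-ratios scaling (-0.48, adjusted p = 9.54e-02) and without P33 replicate 1 (adjusted p = 6.08e-02). Thus at P33 the more abundant activin subunit transcript was Inhba in lipochondrocytes and Inhbb in adipocytes.

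Among receptors, Tgfbr2 and Tgfbr3 were higher at P21 than at P13. Tgfbr2 (ENSMUSG00000032440.12, chr9:116084293-116175360, minus strand), the type II receptor that all TGF-betas use, had 5.42, 5.55 and 7.31 FPKM at P8, 6.69, 6.67 and 8.21 at P10, 6.01, 7.11 and 6.58 at P13, 17.1, 17.2 and 18.3 at P21, 15.4, 17.6 and 25.5 at P33, and 16.9, 15.1 and 16.1 in adipocytes. The 9 sorted libraries all lay below the 6 floating lipochondrocyte libraries, which overlapped the adipocyte range. P21 was 2.67 times P13 (log2 difference 1.29, SE 0.15, adjusted p = 1.21e-05; under median-of-ratios scaling 0.88, adjusted p = 2.01e-04). P33 was not called against adipocytes (log2 difference 0.24, SE 0.15, adjusted p = 1.82e-01), but was higher under median-of-ratios scaling (0.56, adjusted p = 2.45e-03).

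Tgfbr3 (ENSMUSG00000029287.14, chr5:107106570-107289629, minus strand) encodes betaglycan, which presents TGF-beta 2 to the signalling receptors. It had 2.05, 1.57 and 2.08 FPKM at P8, 2.4, 1.19 and 1.81 at P10, 1.89, 2.49 and 1.67 at P13, 5.67, 3.76 and 3.92 at P21, 6.06, 5.25 and 6.82 at P33, and 11.2, 13.4 and 12 in adipocytes. P21 was above P13 (log2 difference 0.85, SE 0.17, adjusted p = 1.30e-03) and P33 below adipocytes (log2 difference -0.91, SE 0.17, adjusted p = 2.53e-04), both without overlap. The difference from adipocytes was -0.40 under upper-quartile scaling and not called (adjusted p = 7.35e-02). Of the type I receptors, Tgfbr1 had 1.79, 1.39 and 1.77 FPKM at P33, 1.68, 1.23 and 1.61 FPKM at P21 and 0.94, 0.97 and 0.71 FPKM at P13, and 2.27, 2.91 and 2.25 FPKM in adipocytes. Its rise at P21 (log2 difference 0.42, SE 0.13, adjusted p = 1.87e-02) lost its call under median-of-ratios scaling (adjusted p = 3.09e-01) and without P13 replicate 3 or P21 replicate 1 or 3 (adjusted p 5.79e-02 to 7.58e-02). The lower level at P33 than in adipocytes (log2 difference -0.39, SE 0.13, adjusted p = 1.60e-02) was lost with that scaling (adjusted p = 3.31e-01) and without P33 replicate 2 or adipocyte replicate 2 (adjusted p 7.00e-02 to 7.90e-02).

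Acvr1c (ENSMUSG00000026834.13, chr2:58267453-58357895, minus strand), the nodal and activin receptor ALK7 of fat cells, was listed at 0 in the 9 sorted libraries, did not exceed 0.02 FPKM at P21 and P33, and had 14.1, 15.5 and 13.9 FPKM in adipocytes. Acvrl1 (ENSMUSG00000000530.16, chr15:101128522-101145336, plus strand), the ALK1 receptor best known from endothelium, had 6.52, 6.85 and 8.54 FPKM at P8, 5.17, 4.45 and 5.73 at P10, 4.88, 5.75 and 6.07 at P13, 5.21, 5.12 and 7.92 at P21, 6.76, 6.96 and 12.4 at P33, and 16.8, 17.2 and 17 in adipocytes. P33 lay below adipocytes (log2 difference -0.94, SE 0.20, adjusted p = 5.73e-04), a call lost under upper-quartile scaling (-0.41, adjusted p = 5.50e-02). Endothelial marker sums were 6.87 to 10.2 FPKM at P33 and 556 to 580 FPKM in adipocytes, and their part in the Acvrl1 difference was not tested.

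The activin type II receptor Acvr2a was lower at P33 than in adipocytes, at 0.83, 0.63 and 0.49 FPKM against 2.61, 2.14 and 2.36 FPKM (log2 difference -1.03, SE 0.17, adjusted p = 5.81e-05). Acvr2a overlaps Orc4 on the opposite strand, which stood at 3.38 to 20.52 FPKM. Bmpr1a, the main BMP type I receptor of cartilage, had 4.78, 4.41 and 3.62 FPKM at P33 and 4.75, 4.7 and 4.95 FPKM in adipocytes (log2 difference -0.14, SE 0.18, adjusted p = 4.82e-01). Its higher level at P21 than at P13 (log2 difference 0.48, SE 0.18, adjusted p = 3.86e-02) lost its call under 10 of 15 alternatives, among them median-of-ratios scaling (adjusted p = 5.36e-01) and leaving out P13 replicate 1 or 3 or P21 replicate 1 or 2 (adjusted p 6.34e-02 to 1.46e-01). Bmpr1b, a receptor GDF5 binds well, did not pass the filter: it had 1.12, 0.78 and 1.13 FPKM at P8 and 0.44, 0.36 and 0.34 FPKM at P33, and was listed at 0 in the adipocyte libraries. Bmpr2, the BMP type II receptor, had 1.26, 1.3 and 0.53 FPKM at P33 and 1.53, 1.54 and 1.63 FPKM in adipocytes. Acvr1 and Acvr2b, a type I and a type II receptor, were called in none of the 7 comparisons, and their highest values (8.78 and 3.19 FPKM) were both in P8 replicate 3. Acvr1b had 0.30 to 0.64 FPKM in all libraries.

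Of the 7 SMAD transcripts tested, 2 (Smad4 and Smad7) were lower at P13 than at P10, where 4.03% of all genes were lower, and none was called in the other comparisons between stages. Under median-of-ratios scaling 5 (also Smad2, Smad3 and Smad5) were lower at that step, where 8.56% of all genes were lower, and Smad3 was higher at P10 than at P8 (3.60% of all genes higher). Smad4 (ENSMUSG00000024515.13, chr18:73639009-73703780, minus strand), the common partner, had 5.14, 3.43 and 7.89 FPKM at P8, 5.38, 4.31 and 7.34 at P10, 3.65, 1.77 and 1.95 at P13, 8.65, 3.22 and 4.15 at P21, 4.01, 5.89 and 7.87 at P33, and 2.22, 2.11 and 3.16 in adipocytes. It varied up to about the size of its group differences, as at P21. P33 was above adipocytes (log2 difference 0.96, SE 0.33, adjusted p = 1.82e-02), a call lost without P33 replicate 3 or adipocyte replicate 1 or 2 (adjusted p 5.27e-02 to 7.62e-02), and P13 below P10 (log2 difference -0.96, SE 0.33, adjusted p = 4.91e-02), lost without P10 replicate 1, 2 or 3 or P13 replicate 2 or 3 (adjusted p 5.55e-02 to 1.61e-01).

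Smad2 (ENSMUSG00000024563.15, chr18:76241580-76310963, plus strand), a transducer of TGF-beta and activin, had 4.1, 4.11 and 7.59 FPKM at P8, 4.28, 4.22 and 4.79 at P10, 2.9, 3.35 and 3.64 at P13, 5.56, 4.49 and 2.63 at P21, 3.2, 2.7 and 3.38 at P33, and 6.97, 7.46 and 8.8 in adipocytes. The 3 adipocyte libraries lay above all P33 libraries (log2 difference -1.09, SE 0.21, adjusted p = 3.13e-04), and with median-of-ratios scaling Smad2 was lower at P13 than at P10 (-0.59, adjusted p = 4.11e-02), a difference of -0.34 and not called without that scaling. Smad3, its partner in the same arm, had 2.19, 2.33 and 2.65 FPKM at P33 and 2.8, 2.42 and 2.91 FPKM in adipocytes, and was not called (log2 difference -0.13, SE 0.10, adjusted p = 2.77e-01). At P13 against P10 it was near the threshold (log2 difference -0.30, SE 0.10, adjusted p = 5.18e-02; under median-of-ratios scaling adjusted p = 2.27e-03). The lower Smad3 at P21 than in adipocytes (log2 difference -0.29, SE 0.10, adjusted p = 2.19e-02) lost its call under median-of-ratios scaling (adjusted p = 5.38e-01) and without P21 replicate 1 or 2 or adipocyte replicate 1 or 3 (adjusted p 5.05e-02 to 8.00e-02).

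Smad1, a BMP transducer, was at 1.23, 1.19 and 1.56 FPKM in P33 lipochondrocytes and 3.44, 3.3 and 2.64 FPKM in adipocytes (log2 difference -0.82, SE 0.30, adjusted p = 2.22e-02), and the call was lost under median-of-ratios scaling (adjusted p = 1.05e-01) and without P33 replicate 1 or 2 or adipocyte replicate 1 or 2 (adjusted p 5.48e-02 to 6.34e-02). Smad5, of the same arm, ran from 1.99 to 3.96 FPKM over all libraries and was not called in the fit of all 6 groups, but was lower at P13 than at P10 under median-of-ratios scaling (-0.50, adjusted p = 2.33e-02). Smad7 (ENSMUSG00000025880.11, chr18:75367529-75395935, plus strand), a feedback inhibitor, had 1.58, 1.24 and 5.56 FPKM at P8, 3.77, 3.53 and 3.15 at P10, 1.11, 1.09 and 0.86 at P13, 1.26, 0.69 and 1.34 at P21, 1.35, 1.04 and 1.48 at P33, and 0.61, 0.88 and 0.46 in adipocytes. All P13 libraries lay below all P10 libraries (log2 difference -1.15, SE 0.29, adjusted p = 1.05e-02). At P8 replicates 1 and 2 were under 1.6 FPKM and replicate 3 at 5.56 FPKM; P10 against P8 was not called (log2 difference 0.41, SE 0.29, adjusted p = 3.76e-01), but without P8 replicate 3 the difference was 0.90 (SE 0.15, adjusted p = 4.55e-03). Smad6, the other inhibitory SMAD, had 1.96 FPKM in that library against 0.34 and 0.27 FPKM in P8 replicates 1 and 2, and was not called in the fit of all 6 groups. Smad9 had 0.82, 0.87 and 0.55 FPKM at P33 and 0.11, 0.18 and 0.06 FPKM in adipocytes and did not pass the filter.

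Among the secreted antagonists, Chrdl2 and Nog were high in the young sorted cells, Grem1 at P33, and Chrdl1 in adipocytes. Chrdl2 (ENSMUSG00000030732.12, chr7:100006172-100034728, plus strand), a chordin-like BMP-binding protein of cartilage, had 95.2, 108 and 112 FPKM at P8, 114, 96.7 and 122 at P10, 45.7, 47.2 and 68 at P13, 4.9, 2.44 and 0.74 at P21, 0.36, 0.69 and 0.32 at P33, and 0 in all 3 libraries in adipocytes. The P8 and P10 libraries were all above those of P13, which were all above those of P21, and P33 lay below 1 FPKM. P21 held 0.0502 times the P13 level (log2 difference -4.03, SE 0.30, adjusted p = 1.25e-07). P13 was below P10 (log2 difference -1.05, SE 0.30, adjusted p = 2.20e-02), a call lost without P10 replicate 1 or 3 or P13 replicate 1 or 2 (adjusted p 6.49e-02 to 7.83e-02), and P33 below P21 (log2 difference -1.18, SE 0.30, adjusted p = 2.30e-02), lost without P21 replicate 1 or 2 or P33 replicate 1 or 3 (adjusted p 5.08e-02 to 7.37e-02). The P33 against P21 call was also lost when only P21 and P33 entered the fit (adjusted p = 2.86e-01). P33 was not called against adipocytes, where Chrdl2 is listed at 0 (log2 difference 0.53, SE 0.30, adjusted p = 1.33e-01).

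Nog (ENSMUSG00000048616.4, chr11:89300638-89302332, minus strand), which encodes the BMP trap noggin, had 25.6, 22.2 and 38.4 FPKM at P8, 19.2, 15.2 and 24.2 at P10, 9.51, 10.4 and 10.8 at P13, 15.2, 8.02 and 8.58 at P21, 10.1, 8.52 and 7.0 at P33, and 0.35, 0.34 and 0.39 in adipocytes. Every P8 and P10 library lay above every P13 library; P13 was below P8 (log2 difference -1.37, SE 0.23, adjusted p = 2.59e-03) and below P10 (log2 difference -0.85, SE 0.23, adjusted p = 1.65e-02). The second call was lost without P10 replicate 1 or 3 (adjusted p 5.05e-02 to 6.86e-02), and without P8 replicate 3, the highest library, the first remained at -1.15 (adjusted p = 1.37e-02). The P21 libraries lay on both sides of those of P13 (log2 difference -0.00, SE 0.23, adjusted p = 1.00e+00), and 2 of 3 P33 libraries lay below them. Every P33 library lay above every adipocyte library, where Nog did not exceed 0.39 FPKM, and this is given with no test.

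Grem1 (ENSMUSG00000074934.3, chr2:113746164-113758646, minus strand), which encodes gremlin, a trap for several BMPs, was the only member called higher at P33 than at P21. Its values were 0.85, 0.66 and 1.06 FPKM at P8, 0.74, 0.86 and 1.13 at P10, 0.61, 0.66 and 1.04 at P13, 2.62, 2.52 and 2.08 at P21, 39.8, 32.2 and 24.3 at P33, and 0 in all 3 libraries in adipocytes. The 3 P33 libraries were all above 24 FPKM, the P21 libraries all below 3 FPKM and the sorted libraries all below 1.2 FPKM. P33 was 13.3 times P21 (log2 difference 3.26, SE 0.16, adjusted p = 2.23e-08), and P21 3.13 times P13 (log2 difference 0.95, SE 0.16, adjusted p = 2.32e-04). Both P33 and P21 cells were collected by flotation. Macrophage marker sums were 28.1 to 54 FPKM at P33 and 15.3 to 24.6 FPKM at P21, with 4 of 8 markers higher, and fibroblast and perichondrium sums overlapped (5213 to 9349 FPKM at P33, 5317 to 9776 FPKM at P21; 1 of 12 higher and 3 lower); their part in the Grem1 difference was not tested. No fold or test is given against adipocytes, where Grem1 is listed at 0. Its promoter window, printed above, was the only one of those printed with the GC-rich element.

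Chrdl1 (ENSMUSG00000031283.15, chrX:143285674-143394262, minus strand), the chordin-like gene that was high in adipocytes, had 0.25, 0.31 and 0.17 FPKM at P8, 0.19, 0.29 and 0.33 at P10, 0.25, 0.14 and 0.11 at P13, 1.11, 1.87 and 1.91 at P21, 2.14, 2.15 and 3.33 at P33, and 30.3, 31.9 and 28.7 in adipocytes. The floating lipochondrocytes lay above all sorted libraries and far below adipocytes. P21 was 9.78 times P13 (log2 difference 1.16, SE 0.14, adjusted p = 1.54e-05), and P33 0.0838 times adipocytes (log2 difference -3.16, SE 0.14, adjusted p = 2.18e-11).

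Chrd, which encodes chordin, had 3.3, 3.56 and 5.15 FPKM at P33, 3.62, 2.89 and 4.39 FPKM at P21 and 1.44, 2.11 and 1.77 FPKM at P13, and 1.86, 2.14 and 2.24 FPKM in adipocytes. It was higher at P21 than at P13 (log2 difference 0.73, SE 0.16, adjusted p = 1.88e-03) and at P33 than in adipocytes (log2 difference 0.68, SE 0.16, adjusted p = 1.32e-03). Chrd overlaps Thpo, which stood at 0 to 0.81 FPKM. The activin trap Fst had 1.45, 1.67 and 2.96 FPKM at P33, 2.29, 1.83 and 2.86 FPKM at P21, 0.64, 0.80 and 0.49 FPKM at P13 and 0.63, 0.67 and 0.90 FPKM in adipocytes. Every P21 and P33 library lay above every P13 and adipocyte library for Fst. In the other groups only P8 replicate 2 reached 1 FPKM, so Fst passed the filter only through P21 and P33 libraries. That favoured its higher level at P21 than at P13 and at P33 than in adipocytes, and both are given with no test.

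Fstl1 (ENSMUSG00000022816.11, chr16:37776873-37836514, plus strand), a secreted glycoprotein related to follistatin, was the most abundant member in every lipochondrocyte library, and in adipocytes overlapped Chrdl1. It had 761, 792 and 1094 FPKM at P8, 998, 881 and 999.6 at P10, 511, 609 and 592 at P13, 729.9, 1047 and 1189 at P21, 538, 521 and 905 at P33, and 27.5, 28.2 and 31.8 in adipocytes. P33 was 22.4 times adipocytes (log2 difference 4.39, SE 0.22, adjusted p = 6.96e-11). P13 lay below P10 (log2 difference -0.75, SE 0.22, adjusted p = 2.18e-02), a call lost without P10 replicate 1 or 3 or P13 replicate 1 (adjusted p 5.89e-02 to 7.21e-02). P21 above P13 (log2 difference 0.77, SE 0.22, adjusted p = 1.06e-02) was lost under median-of-ratios scaling (0.31, adjusted p = 2.93e-01) and without P21 replicate 3 (adjusted p = 5.10e-02).

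**Figure D3:**
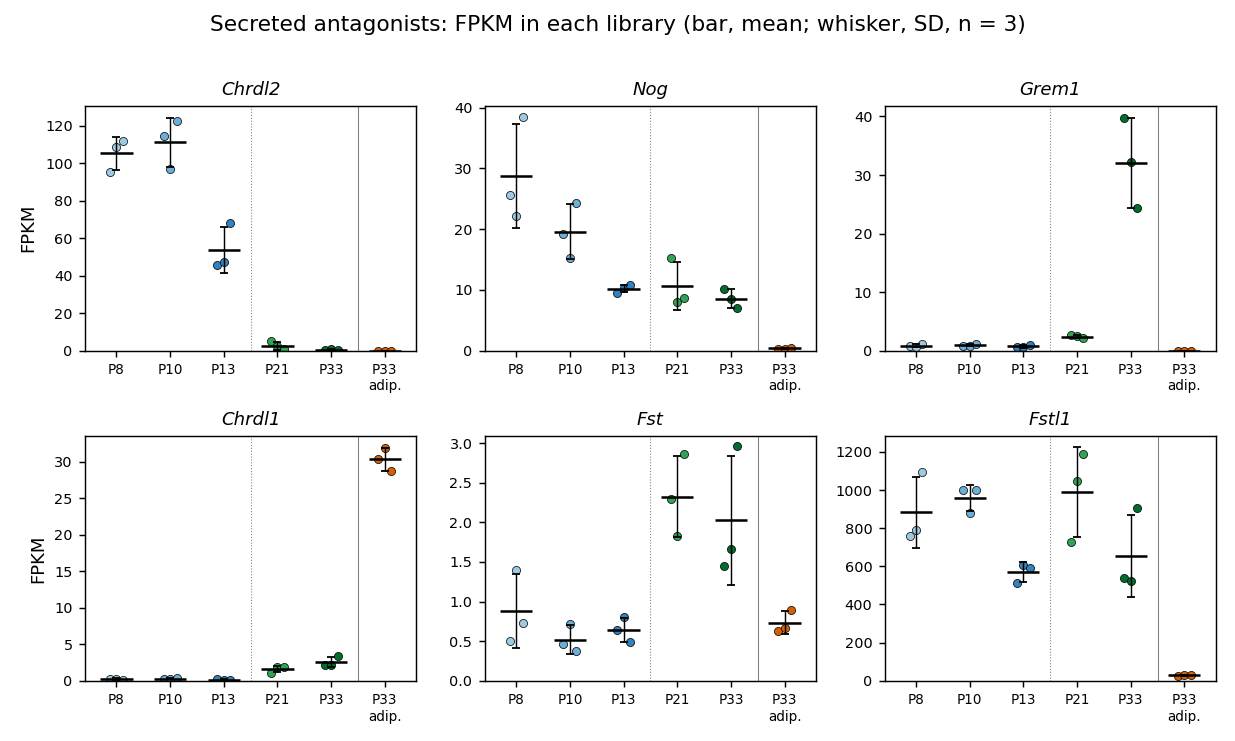
FPKM (linear axes from 0) of Chrdl2, Nog, Grem1, Chrdl1, Fst and Fstl1 by group; points are libraries, bars means and whiskers SD (n = 3), with a dotted line between sorted and floating cells and a solid line before the adipocytes (adip.). Chrdl2 falls away at P21, Grem1 is at 24.34 to 39.76 FPKM at P33 and at most 2.62 FPKM elsewhere, and Chrdl1 is high in adipocytes.

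Summed over 6 antagonists (Nog, Chrd, Chrdl1, Chrdl2, Grem1 and Fst, a set chosen after their values were seen), the total FPKM averaged 138 ± 15 at P8, 134 ± 18 at P10, 67.2 ± 13 at P13, 23.3 ± 5.6 at P21 and 49.7 ± 7 at P33, and 33.5 ± 1.4 in adipocytes (SD, n = 3). The leading gene differed by stage. Chrdl2 supplied 76.5%, 83.0% and 79.4% of the sum at P8, P10 and P13. Nog led at P21 with 44.6% ± 5.63, Grem1 at P33 with 64.0% ± 6.79 and Chrdl1 in adipocytes with 90.5% ± 1.28. Chrdl2 supplied 0.929% at P33. Shares of FPKM are shares of transcript level and not of protein.

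**Figure D4:**
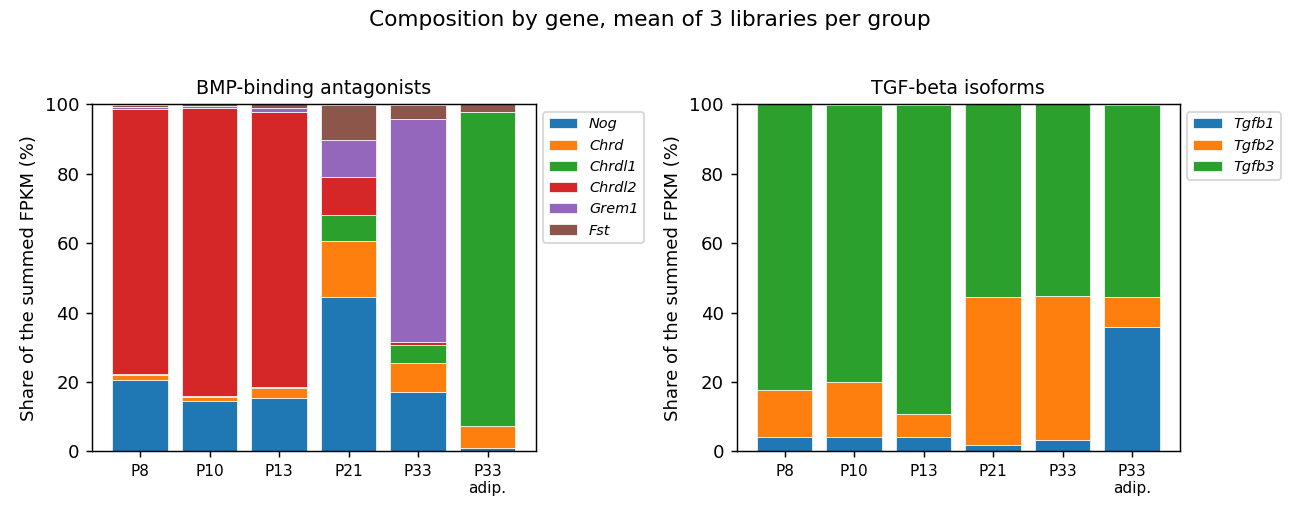
Mean share (percent, stacked bars from 0 to 100) of each gene in the summed FPKM of 6 secreted antagonists and of the 3 TGF-beta isoforms, by group (n = 3 libraries each; adip., adipocytes). The antagonists are titled BMP-binding, but the activin trap Fst is among them. The leading antagonist is Chrdl2 at P8 to P13, Nog at P21, Grem1 at P33 and Chrdl1 in adipocytes, and the Tgfb2 share of the isoforms is 6.58% at P13 and 42.8% at P21.

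The genes these pathways act on were read from lists of other pathway genes. Of 14 BMP target genes 9 were tested: P33 lipochondrocytes had 8 higher and 1 lower than adipocytes, with a median difference of 2.04 (all genes -0.28). Of all genes 24.0% were higher and 44.5% lower in that comparison. Id1, an inhibitor of differentiation factors that BMP signals induce directly, had 1244, 1642 and 1136 FPKM at P8, 1778, 1964 and 2379 at P10, 983, 1329 and 1306 at P13, 196, 260.5 and 232 at P21, 127, 142 and 275 at P33, and 71.7, 72.3 and 75.8 in adipocytes. Id3, of the same family, had 1228, 1412 and 1173 FPKM at P8, 1129, 1153 and 1439.5 at P10, 1537, 1649.5 and 1775 at P13, 285, 296 and 306 at P21, 296, 299 and 417 at P33, and 227, 231 and 242 in adipocytes. Both were lower at P21 than at P13 without overlap (Id1, log2 difference -2.38, SE 0.24, adjusted p = 2.59e-06; Id3, log2 difference -2.48, SE 0.14, adjusted p = 4.78e-09), where 1 of the 9 was higher and 4 were lower with a median of -0.30 (all genes 0.29). Of all genes 36.0% were higher and 7.04% lower at that step. Id2 was also lower, at 62.8 ± 6 FPKM at P21 against 134 ± 21 FPKM at P13 (SD, n = 3 each; log2 difference -1.08, SE 0.17, adjusted p = 1.69e-04), and Hey1 was the fourth (log2 difference -0.30, SE 0.10, adjusted p = 2.98e-02). The 1 higher gene, Msx1, lost its call under median-of-ratios scaling (adjusted p = 1.10e-01), which gave 0 higher and 5 lower (16.0% and 16.0% of all genes). Bambi, a BMP target that encodes a decoy receptor, had 24.1, 29.2 and 30.7 FPKM at P13 and 12.4, 11.4 and 14.8 FPKM at P10 (log2 difference 1.06, SE 0.13, adjusted p = 5.89e-05), and 21.2, 27.2 and 22.6 FPKM at P33 against 1.35, 1.81 and 1.36 FPKM in adipocytes. Hey1 was the target that was lower at P33 than in adipocytes (log2 difference -1.84, SE 0.10, adjusted p = 3.02e-10).

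TGF-beta targets held both higher and lower genes in each comparison given here. Of 14 listed, 13 were tested, and P21 against P13 had 6 higher and 1 lower (median 0.49, all genes 0.29), or 5 and 2 under median-of-ratios scaling. Of all genes 36.0% were higher and 7.04% lower at that step, or 16.0% and 16.0% with that scaling. Ctgf, a matricellular target, had 1874, 1789.7 and 2749 FPKM at P21 and 781, 802 and 916 FPKM at P13 (log2 difference 1.33, SE 0.21, adjusted p = 1.78e-04), and Col1a1 and Loxl2 were higher by 2.57 and 2.07. Postn was lower (log2 difference -1.41, SE 0.24, adjusted p = 3.08e-04). At P13 against P10, 2 were higher, Ctgf and Prg4, and 8 lower, led by Postn (-2.53) and Col1a1 (-2.29), with a median of -0.72 (all genes 0.15; 18.6% higher and 4.03% lower). Of 12 fibroblast and perichondrium markers 9 were lower and 1 higher at that same step, their part was not tested, and Col1a1 and Postn are themselves fibroblast genes. Against adipocytes the targets split 5 higher and 3 lower at P33 (median -0.19), where 24.0% of all genes were higher and 44.5% lower.

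Among the genes that store and release TGF-beta in the matrix, Ltbp1, Fbn1 and Thbs1 were higher at P21 than at P13. Of 18 listed 16 were tested, and P21 had 9 higher and 2 lower than P13 (median 0.72, all genes 0.29), or 7 and 3 under median-of-ratios scaling, where 36.0% of all genes were higher and 7.04% lower, or 16.0% and 16.0% with that scaling. At the same step 6 of 12 fibroblast and perichondrium markers were higher and 2 lower, and their part was not tested. Ltbp1, which tethers latent TGF-beta to the matrix, had 16.6, 14.8 and 19.8 FPKM at P21 and 1.6, 1.52 and 1.43 FPKM at P13 (log2 difference 2.84, SE 0.17, adjusted p = 1.09e-08). Fbn1, the fibrillin on which such complexes are held, had 27.3, 34.2 and 37.9 FPKM at P21 and 4.45, 4.76 and 4.1 FPKM at P13 (log2 difference 2.64, SE 0.16, adjusted p = 8.59e-09), while Fbn2, its fetal relative, was lower, at 8.54 ± 3 FPKM against 43.3 ± 4.2 FPKM (log2 difference -2.26, SE 0.18, adjusted p = 2.73e-07). Thbs1, an activator of latent TGF-beta, had 99.5, 122 and 176 FPKM at P21 and 11.1, 13.1 and 13.3 FPKM at P13 (log2 difference 3.27, SE 0.21, adjusted p = 2.59e-08). The P21 and P13 libraries did not overlap for these 3 higher genes. The second lower gene was the protease gene Mmp14 (log2 difference -1.92, SE 0.16, adjusted p = 4.47e-07). P33 had 12 of the 16 higher and 3 lower than adipocytes (median 1.71), where 24.0% of all genes were higher and 44.5% lower.

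**Figure D5:**
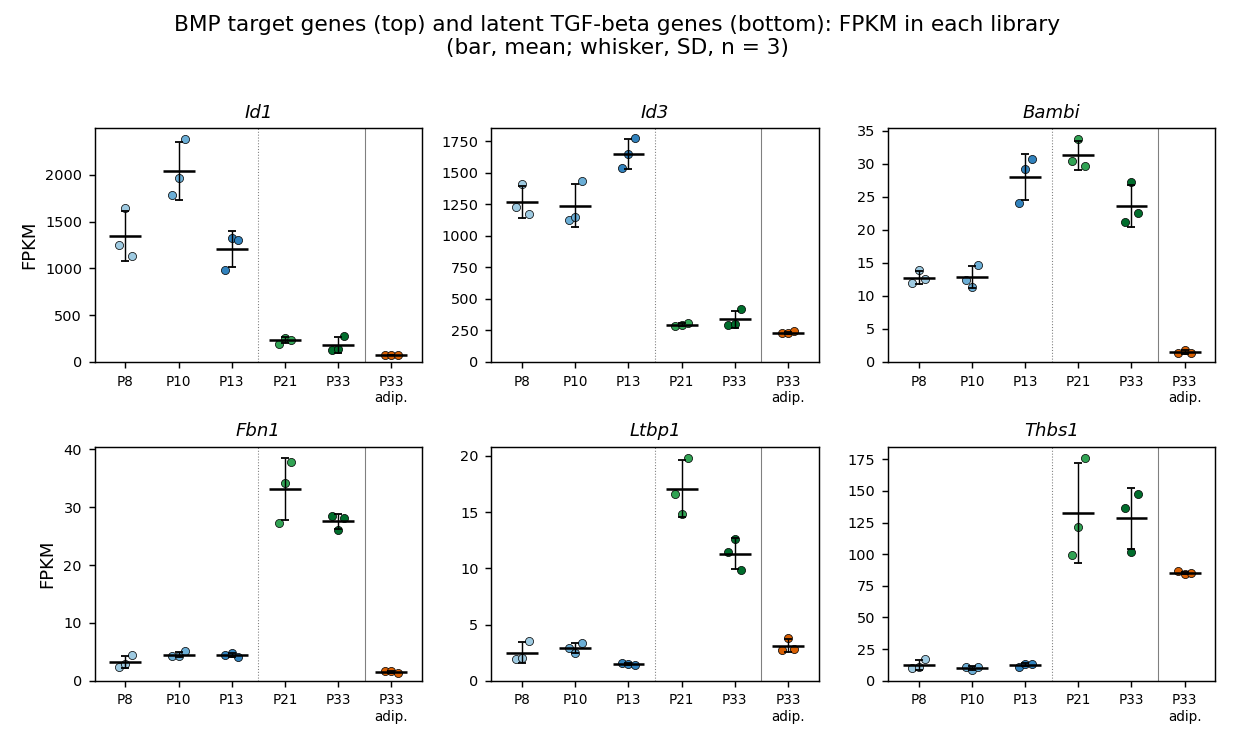
FPKM (linear axes from 0) of the BMP targets Id1, Id3 and Bambi (top) and of Fbn1, Ltbp1 and Thbs1, which hold or release latent TGF-beta (bottom), by group; points are libraries, bars means and whiskers SD (n = 3), with a dotted line between sorted and floating cells and a solid line before the adipocytes (adip.). Id1 and Id3 are at 983 to 2379 FPKM in the sorted libraries and 126.7 to 417 FPKM in the floating lipochondrocytes, and the bottom 3 genes are higher in all floating lipochondrocyte libraries than in all sorted ones.

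Other secreted and membrane modulators (29 listed, 20 tested) had 11 higher and 5 lower at P33 than in adipocytes, where 24.0% of all genes were higher and 44.5% lower. At P21 against P13, 10 were higher and 3 lower (36.0% and 7.04% of all genes), or 8 and 5 with a median of 0.02 under median-of-ratios scaling (16.0% and 16.0% of all genes). At P33 against P21, where Grem1 was higher, 1 of the 20 was higher and 3 lower (2.87% and 7.17% of all genes). Bmper, a BMP-binding protein that can act for or against BMPs, had 20.8, 23.5 and 21.1 FPKM at P33 and 49, 43.6 and 39.8 FPKM at P21 (log2 difference -0.98, SE 0.10, adjusted p = 1.87e-05). Twsg1, which works with chordin, had 33.6, 41.1 and 31.8 FPKM at P33 and 60.7, 58.1 and 65.8 FPKM at P21 (log2 difference -0.78, SE 0.11, adjusted p = 4.38e-04). Neither overlapped between the stages. The third was Htra1 (log2 difference -1.24, SE 0.35, adjusted p = 3.72e-02), lost under median-of-ratios scaling (adjusted p = 5.58e-02), and the higher one was Fmod (log2 difference 0.69, SE 0.19, adjusted p = 3.67e-02).

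Of 10 other superfamily ligands and receptors 4 were tested, and all 4 (Amhr2, Inha, Lefty1 and Mstn) were higher at P21 than at P13 and at P33 than in adipocytes (36.0% and 24.0% of all genes higher). Amhr2 and Mstn passed the filter only through the P21 and P33 libraries, which favours such a difference, and are given as values. Amhr2, the receptor of anti-Müllerian hormone, had 9.88, 9.0 and 6.83 FPKM at P21 and 0.33, 0.51 and 1.1 FPKM at P13. Mstn, the muscle growth inhibitor myostatin, had 4.23, 4.52 and 3.87 FPKM at P21 and 0.04, 0 and 0.09 FPKM at P13, beside the skeletal muscle marker sums of 74 to 506 FPKM at P21 and 23 to 36.5 FPKM at P13, and the part of muscle in it was not tested. Across the 20 intracellular regulators, all tested, P21 had 10 higher and 1 lower than P13 (36.0% and 7.04% of all genes). Under median-of-ratios scaling 2 were higher and 3 lower (16.0% and 16.0% of all genes). P33 had 4 higher and 8 lower than adipocytes (24.0% and 44.5% of all genes), or 6 and 6 with that scaling (30.3% and 34.9% of all genes).

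The 14 members that did not pass the filter included 11 of the 19 BMP and GDF ligands: Bmp7, Bmp8a, Bmp8b, Bmp10, Bmp15, Gdf2, Gdf3, Gdf6, Gdf7, Gdf9 and Gdf11. Bmp10, a heart ligand, was listed at 0 in all 18 libraries. Bmp7, a ligand of kidney and brown fat, ran from 0 to 0.19 FPKM. Bmp15, an oocyte ligand, had 0.34, 0.36 and 0.50 FPKM at P33 and was listed at 0 in the adipocyte libraries.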

How the data were processed

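For 18 libraries of total RNA the authors deposited FPKM with 2 decimals. A separate table holds read counts per library (total and paired, per the file headers) and alignment rates in percent (73.19% to 84.44%, per the file headers). STAR 2.4.2a and the mm10 build are named in the submitters' processing notes. Which program and annotation gave the FPKM, and whether strand was used, is not given in the sources used here. Totals ran from 12461965 to 27640142 reads. Counting intervals need counts per gene, which FPKM lack, and are left out. All per-sample columns were used, and no 2 libraries held identical values.

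Of 46983 genes, the 13815 that reached 1 FPKM in 3 or more libraries were fitted on log2(FPKM + 1) with 6 group means over all 18 libraries in limma 3.58.1 (R 4.3.3; moderated statistics with a mean-variance trend; two-sided; Benjamini-Hochberg over all genes within each of 7 comparisons), after a check on simulated data. Per the study's design text, stages were compared with each other and with adipocytes. A member was described where a group mean reached 1 FPKM (38 members), and given in every library where a mean reached 5 FPKM and a comparison was called (21 members); Smad7, Id1 and Id3 were given in full and chosen after their values were seen. The members and the lists of targets, modulators and cell markers were chosen with earlier results of these data known; 1 member and 1 listed target are not reported here. Coordinates are from the GENCODE annotation of mm10 and promoters from RefSeq (GRCm38.p6). Same-numbered libraries did not deviate together (correlations of -0.168 to 0.206), so replicates were not paired. Alternatives were 2 pseudocounts (0.1 and 0.5), 2 filters, 2 scalings (median of ratios, upper quartile), smaller fits, no trend, a replicate block and leaving out each library. Tables and plots used Python 3.11.15, pandas 2.3.3 and matplotlib 3.10.9.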

Additional observations from a re-analysis of the deposited data

How the results depend on the processing

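Of 93 called differences of members, 60 kept their call and direction under every alternative and 33 lost the call under at least 1. These include the 5 members that passed the filter only through adipocytes. The exception in direction was Smad3 at P21 against adipocytes, at 0.04 under upper-quartile scaling. Against adipocytes, the lower members numbered 8 at P33 and 8 at P21 with a filter of 5 FPKM, where fewer members were tested, and 7 and 9 under upper-quartile scaling. P10 against P8 had 3 higher and 0 lower under median-of-ratios and 1 and 0 under upper-quartile scaling. P13 against P10 had 13 lower under median-of-ratios scaling. P13 against P8 had 0 higher with no filter or in lipochondrocyte libraries alone, and 2 with the filter of 5 FPKM or either scaling. P33 against P21 had 2 higher with no filter or upper-quartile scaling, and 0 lower when only these groups entered the fit, where the calls among all genes numbered 126 against 1388. The causes of the changes with scaling were not tested.

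With 1 library left out, the counts ran from 11 to 13 higher and 11 to 12 lower for P33 against adipocytes, 14 to 15 in each direction for P21 against adipocytes, 0 to 1 higher and 1 lower for P10 against P8, and 2 higher and 4 to 8 lower for P13 against P10. They were 0 to 1 higher and 2 to 3 lower for P13 against P8, 12 to 14 higher and 3 lower for P21 against P13, and 1 to 3 higher and 1 to 4 lower for P33 against P21. Among all genes, P10 against P8 gave 1525 calls, and 520 without P10 replicate 1, 794 without P10 replicate 2, 640 without P8 replicate 2 and 914 without P8 replicate 3; it gave 985 with no filter, 622 under median-of-ratios and 639 under upper-quartile scaling, 351 with only these groups fitted and 983 in lipochondrocyte libraries alone. P13 against P10 gave 1938 calls without P10 replicate 1, against 3124. P13 against P8 gave 339 without P13 replicate 3, 381 without P8 replicate 1 and 347 with only these groups fitted, against 581. P33 against P21 gave 906 without P21 replicate 2, against 1388. With the filter of 5 FPKM, where fewer genes were tested, there were 6189 calls for P33 and 6150 for P21 against adipocytes. The replicate block gave 12 higher and 13 lower at P33 against adipocytes and lost one call made without it, Bmpr1a at P21 against P13 (adjusted p = 5.29e-02). With its own number a library correlated best in 10 of 21 cases. Depth per gene is unknown, so genes near 0 FPKM, among them most of the 14 members that did not pass the filter, are the least certain.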
